A study of Mus musculus with 6 samples.

Results

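The genes described here encode the proteins of the cytosolic ribosome. They were chosen by symbol: every row of the deposited gene table whose symbol begins with Rpl or Rps followed by a digit, together with Rplp0, Rplp1, Rplp2 and Rpsa, and without the Rps6k kinases and the symbols that contain -ps. The rule used no measured value. It gave 84 of the 13642 genes in the table, 51 with a large-subunit symbol and 33 with a small-subunit symbol. Of these, 76 are core ribosomal proteins and 8 are relatives or partners that the pattern also takes in (Rpl22l1, Rps27l, Rpl6l, Rpl10l, Rpl36al, Rpl3l, Rpl7l1 and Rps19bp1). A mean of at least 1 FPKM (fragments scaled by gene length and by all mapped fragments) over the 6 libraries was reached by 82 of them, 49 large and 33 small. The other 2, Rpl3l, a form known from muscle, and Rpl10l, a form known from testis, were each above 0 in a single old library, at 0.843 and 0.395 FPKM.

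Long-lived plasma cells, which stay in the bone marrow and secrete antibody for long periods, had been sorted from C57BL/6J mice and sequenced in 6 libraries. The 3 young libraries came from female mice of 2 to 3 months, bought from the Jackson Laboratory or bred at UCLA. The 3 old libraries came from male mice of 17 to 19 months from the colony of the National Institute on Aging. No genotype or treatment separated the groups, and age, sex and supplier cannot be told apart in this design. The sort took cells high in CD138 and negative for B220, IgD, TCRb, TCRgd, CD11b and Gr-1. Nothing in the labels says how many mice went into a library, so p-values speak only of the spread among the samples at hand, and that spread may be technical.

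A ribosome joins a small subunit, which holds the mRNA and reads its codons, with a large subunit, which links amino acids and passes the new chain out through a tunnel. Each subunit is ribosomal RNA wrapped by many small proteins, most of them present as a single copy, and their mRNAs are among the most abundant of any cell. Most of these mRNAs begin with a run of pyrimidines, the terminal oligopyrimidine (TOP) tract, through which mTOR and Larp1 set their translation together. Antibody secretion makes plasma cells heavy users of ribosomes, many of them docked on the endoplasmic reticulum.

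The bases around listed transcription starts are given for members whose values are described further on. RefSeq promoters (GRCm38.p6) were matched for 63 of the 84 members, 56 of them core. Each line gives 15 bases before and 15 after a listed start, 5′ to 3′ on the gene's strand, with every copy of the motif CTTTC in capitals. The first 5 hold it and the last 3 do not.
Rpl38 (chr11:114668565-114668594, plus strand): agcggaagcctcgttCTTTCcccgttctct
Rplp2 (chr7:141447636-141447665, plus strand): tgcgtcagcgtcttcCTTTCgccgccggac
Rpl35 (chr2:39005117-39005146, minus strand): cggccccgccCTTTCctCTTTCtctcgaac
Rpl18 (chr7:45718056-45718085, plus strand): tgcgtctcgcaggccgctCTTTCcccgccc
Rps26 (chr10:128626492-128626521, minus strand): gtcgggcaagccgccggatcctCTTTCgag
Rps16 (chr7:28350674-28350703, plus strand): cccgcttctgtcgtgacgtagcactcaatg
Rps23 (chr13:90923107-90923136, plus strand): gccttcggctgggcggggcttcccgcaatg
Rps7 (chr12:28635939-28635968, minus strand): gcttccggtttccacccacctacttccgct
Within 25 bases on either side of the start, CTTTC stood on the gene's strand in 18 of the 56 core members, or 32.1%. The same window held it in 7.87% of 27025 genes with a RefSeq promoter and in 6.67% of 8243 tested genes outside the family. On the opposite strand the shares were close to each other, 7.14% of core members against 7.07% of all genes. The letters TATAAA, searched in the 50 bases before the start on the gene's strand, were in 0 of 56 core members. They were in 3.15% of all genes and in 1.64% of tested genes outside the family, and no difference was tested. A match describes letters in a window and is not evidence of a factor bound there. The listed starts were not checked in these cells, and CTTTC is a single motif. Its presence or absence therefore does not show whether a member's mRNA begins with a TOP tract.

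Ribosomal protein genes made up a large part of the summed FPKM of the genes in the table. They took 9.47%, 10.7% and 11.1% of the summed FPKM in young replicates 1, 2 and 3, and 7.48%, 9.24% and 9.40% in old replicates 1, 2 and 3. All 3 old libraries lay below the lowest young one, but narrowly, with 9.40% in old replicate 3 against 9.47% in young replicate 1. The means were 10.4% ± 0.832 in young and 8.71% ± 1.07 in old (SD, n = 3 each). The gap of 1.70 percentage points narrowed to 1.09 without old replicate 1, the library of lowest share. In bulk samples, fewer cells of a type and less RNA per cell cannot be told apart, and a share of a total also moves with everything else in the total.

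Each subunit had a lower mean share in old libraries, but with overlap. Large-subunit genes took 6.02%, 7.02% and 7.30% of the sum in young and 4.83%, 6.03% and 5.91% in old libraries. Small-subunit genes took 3.44%, 3.68% and 3.76% in young and 2.65%, 3.21% and 3.50% in old. The highest old library passed the lowest young one in each subunit, so neither subunit alone separated the groups. The summed large-subunit level divided by the small-subunit level was 1.75, 1.91 and 1.94 in young and 1.82, 1.88 and 1.69 in old libraries. These ratios overlapped, at 1.87 ± 0.103 and 1.80 ± 0.0967 (SD, n = 3 each).

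**Figure D1:**
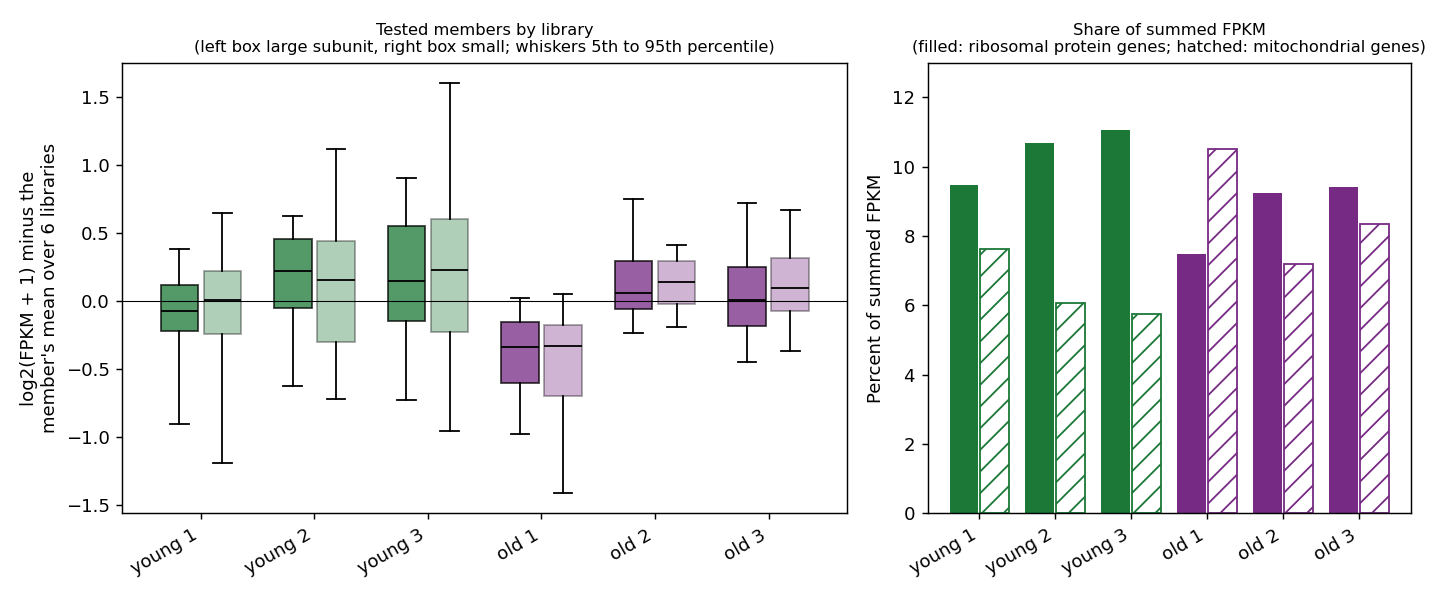
Left, box plots of log2(FPKM + 1) minus each tested member's mean over the 6 libraries, with the large subunit in the darker box and the small subunit in the lighter one; boxes span the quartiles and whiskers the 5th to 95th percentile. Right, bars give the percent of summed FPKM taken by ribosomal protein genes (filled) and by mitochondrially encoded genes (hatched); old replicate 1 has the lowest filled bar, 7.48%, and the highest hatched bar, 10.5%.

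Old replicate 1 stood apart for this family. It was the lowest of the 6 libraries for 42 of the 82 tested members, or 51.2%, where 16.1% of all genes of at least 20 FPKM had their lowest value there. It was the highest library for 0 members, against 13.3% of genes of at least 20 FPKM. In it, 73 of 82 members lay below their own mean, and the median member deviated by -0.34 on the log2 scale in the large subunit and by -0.33 in the small. Young replicate 3 was the highest library for 30 members and young replicate 2 for 25, which is 36.6% and 30.5% against 26.4% and 19.2% of genes of at least 20 FPKM. Mitochondrially encoded genes took 10.5% of the summed FPKM in old replicate 1, against 5.76% to 8.36% in the other 5 libraries, and their part in the low ribosomal values was not tested.

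Other facts of the libraries touch these values. Genes above 0 numbered 8934 to 10664 in young and 11310 to 12049 in old libraries, and low-value steps put roughly 22.3 M to 28.3 M reads behind each. All 10 plasma cell markers were measured and 9 of them had a negative log2 change, with a median of -0.35 and summed levels of 20004 to 23321 FPKM in young and 9059 to 23016 in old, the lowest in old replicate 3. Neutrophil markers were higher on the log2 scale in old libraries for 8 of 10, with sums of 360 to 570 FPKM in young and 265 to 1286 in old. Monocyte markers were higher for 5 of 6 tested, with sums of 95.9 to 352 and 212 to 708. B cell markers split 3 higher and 3 lower of 6 tested, with sums of 159 to 207 FPKM in young and 44.2 to 96.7 in old; without Dntt, an enzyme of early lymphoid cells named after its values were seen, the sums were 19.5 to 43.5 and 22.1 to 50.8. Erythroid sums were 0.320 to 264 and 35.2 to 745, and dividing-cell sums 138 to 231 and 103 to 425. No marker of these lists that was in the table was at 0 in every library, while Hbb-bs, a beta globin, was at 0 in young replicate 2. The part of these cells in the ribosomal values was not tested.

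Levels within the family ran over a 116-fold range among core members. Of the 76, 7 had a mean of at least 1000 FPKM, 51 lay from 100 to 1000 and 18 below 100, with a median of 213 FPKM. Rplp1, an acidic protein of the stalk that recruits elongation factors, was highest at a mean of 1528 FPKM over the 6 libraries. Rps24, a small-subunit protein known from inherited anaemia, followed at 1379, then Rpl26 at 1196, Rpl37 at 1162 and Rps3a1 at 1148 FPKM. Rps13, a small-subunit protein, was the lowest core member at 13.2 FPKM. Most of the proteins are present in the ribosome as a single copy. This range is one of measured mRNA, and subunit composition was not measured. Across the 76 core genes, level and merged exon length had a Spearman correlation of -0.47, given as a description since FPKM divides by a length and genes are not replicates. Stretches of 100 bases shared with another gene's transcript occurred in 71 of the 76, with a median of 41.4% of the transcript, so reads of many members may have been split or dropped in counting; that share and level had a Spearman correlation of -0.18.

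The comparison of old with young libraries asks whether ribosomal protein mRNAs differ with age in these cells. No member passed limma's test at an adjusted p under 0.05 (0 of 82), and over all 10687 tested genes the share that passed was 0%. The smallest adjusted p of a member in limma was 0.736. At an unadjusted p under 0.05, 2 members were lower in old libraries, Rpl36 and Rpl18, against 1.25% of all genes and 2.86% of genes of at least 20 FPKM, and 0 members were higher, against 4.66% and 3.21%.

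With all libraries included, the family lay slightly below its surroundings as a whole. The median log2 change, old minus young on the log2(FPKM + 1) scale, was -0.15 over the 82 members, with quartiles of -0.33 and 0.08. The median was 0.23 over all tested genes and 0.018 over genes of at least 20 FPKM, which are nearer to the family in level. A negative log2 change was seen in 58 of 82 members, or 70.7%, against 38.7% of all tested genes and 48.6% of genes of at least 20 FPKM. Below the median of all tested genes, where 50% of these genes lie by construction, stood 69 of 82 members and 64.9% of genes of at least 20 FPKM. These counts describe the list and carry no test. Without old replicate 1, 40 of 82 members were negative and the member median was 0.0039. The median of all genes was then 0.28, and 64 of 82 members lay below it. That count was 60 without young replicate 3, its lowest value with 1 library left out. For these settings the share of genes of at least 20 FPKM below the all-gene median was not computed. Since that share was 64.9% with all libraries, the 2 counts cannot be set against genes of similar level.

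Large and small subunits had similar medians. The median log2 change was -0.14 for large-subunit genes, of which 34 of 49 were lower, and -0.17 for small-subunit genes, of which 24 of 33 were lower. The difference of the medians, large minus small, was 0.028, and it was -0.10 when old replicate 1 was left out and 0.14 when old replicate 2 was. The negative shift was larger at higher levels. Among core members of 20 to 100 FPKM 9 of 17 were lower with a median of -0.08, among those of 100 to 300 FPKM 21 of 27 with a median of -0.15, and among those of at least 300 FPKM 25 of 31 with a median of -0.21. Of other genes at these levels, 47.4%, 51.3% and 56.7% were lower.

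**Figure D2:**
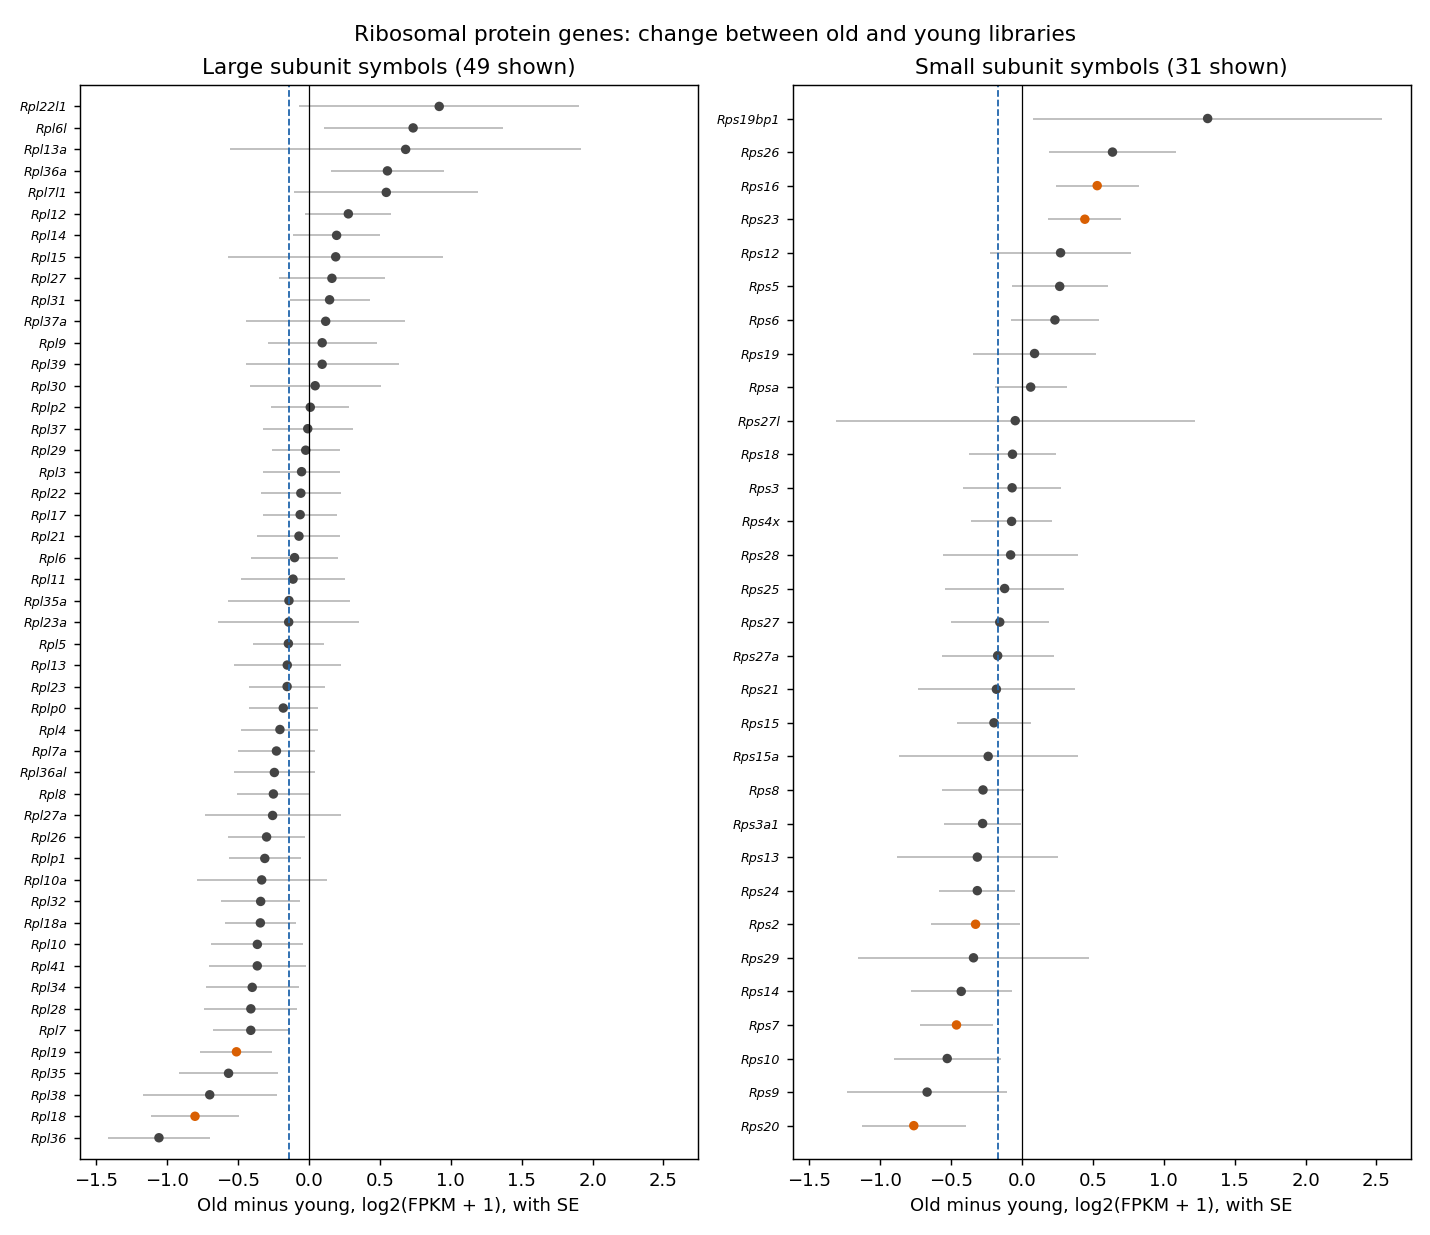
Log2 change of 49 large-subunit and 31 small-subunit members, old minus young on the log2(FPKM + 1) scale, with its limma standard error as a bar; the dashed line is the median over all tested members of the subunit, -0.14 for the large and -0.17 for the small, and orange points are members whose young and old libraries do not overlap. Most points lie left of 0 in both panels, and the widest bars belong to Rps19bp1, Rps27l and Rpl13a.

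In 5 members every old library lay below every young one, against 3.42% of all tested genes and 5.47% of genes of at least 20 FPKM; 5 of 82 is 6.10%. Rpl19, a large-subunit protein whose long helix bridges to the small subunit (chr11:98026710-98030492), measured 1039, 1099 and 1328 FPKM in young and 689.6, 933 and 811 in old libraries. Its means were 1155 ± 153 and 811 ± 122 FPKM (SD, n = 3 each), and its log2 change was -0.51 ± 0.25 (SE; limma adjusted p = 0.839). The lowest library, old replicate 1, was not alone in lying low: the highest old value stayed below the lowest young one by more than 100 FPKM.

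Rpl18, another large-subunit protein, from chr7:45715457-45720836, gave 117, 114 and 145 FPKM in young and 59.5, 83 and 72.2 in old libraries. The old mean of 71.6 ± 11.8 compared with 125 ± 17.2 FPKM in young (SD, n = 3 each). Its log2 change was -0.80 ± 0.31 (SE), with an unadjusted p of 0.0259 and an adjusted p of 0.823 in limma. Leaving out 1 library at a time kept it between -0.92 and -0.68.

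The other 3 were small-subunit genes. Rps20, a protein of the small-subunit head (chr4:3831334-3835665), was at 82.3, 103 and 113 FPKM in young and 37.3, 71.4 and 71.7 in old, a log2 change of -0.76 ± 0.37 (SE; limma adjusted p = 0.839) that was -0.46 without old replicate 1. Rps7, which lies on the body of the small subunit (chr12:28630854-28635953), was at 677, 862 and 837 FPKM in young and 577, 496 and 653 in old, a log2 change of -0.46 ± 0.25 (SE; limma adjusted p = 0.841). Rps2, which lines the entry of the mRNA channel, was at 121, 118 and 115 FPKM in young and 70.1, 111 and 107 in old; it was named after its values were seen. For Rps2 the young libraries were tight, at 118 ± 2.99 FPKM (SD, n = 3), and the groups were separated mostly by old replicate 1, since the other old values lay just under the young ones.

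Every old library lay above every young one in 2 members, both of the small subunit, against 8.78% of all tested genes and 4.66% of genes of at least 20 FPKM; 2 of 82 is 2.44%. Rps16, whose tail reaches the tRNA in the peptidyl site (chr7:28350652-28353155), was at 87.4, 74.3 and 92.3 FPKM in young and 110.0, 131 and 126 in old libraries. The means were 84.6 ± 9.32 and 122 ± 11.1 FPKM (SD, n = 3 each), with a log2 change of 0.53 ± 0.29 (SE; limma adjusted p = 0.841). It ran against the low values of old replicate 1, and its change was 0.60 without that library.

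Rps23, a protein of the decoding centre that bears on reading accuracy (chr13:90922958-90924950), was at 588, 419.6 and 496 FPKM in young and 601, 686 and 747 in old libraries. The log2 change was 0.44 ± 0.26 (SE; limma adjusted p = 0.844). The margin between the groups was narrow, since young replicate 1 and old replicate 1 differed by little. The small subunit held 3 of the 5 members that lay wholly below and both that lay wholly above. These are 9.09% and 6.06% of its 33 members, against 4.08% and 0% of 49 large-subunit members. Among genes of at least 20 FPKM the shares were 5.47% and 4.66%. The counts are small, and no test of a difference between the subunits was made.

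**Figure D3:**
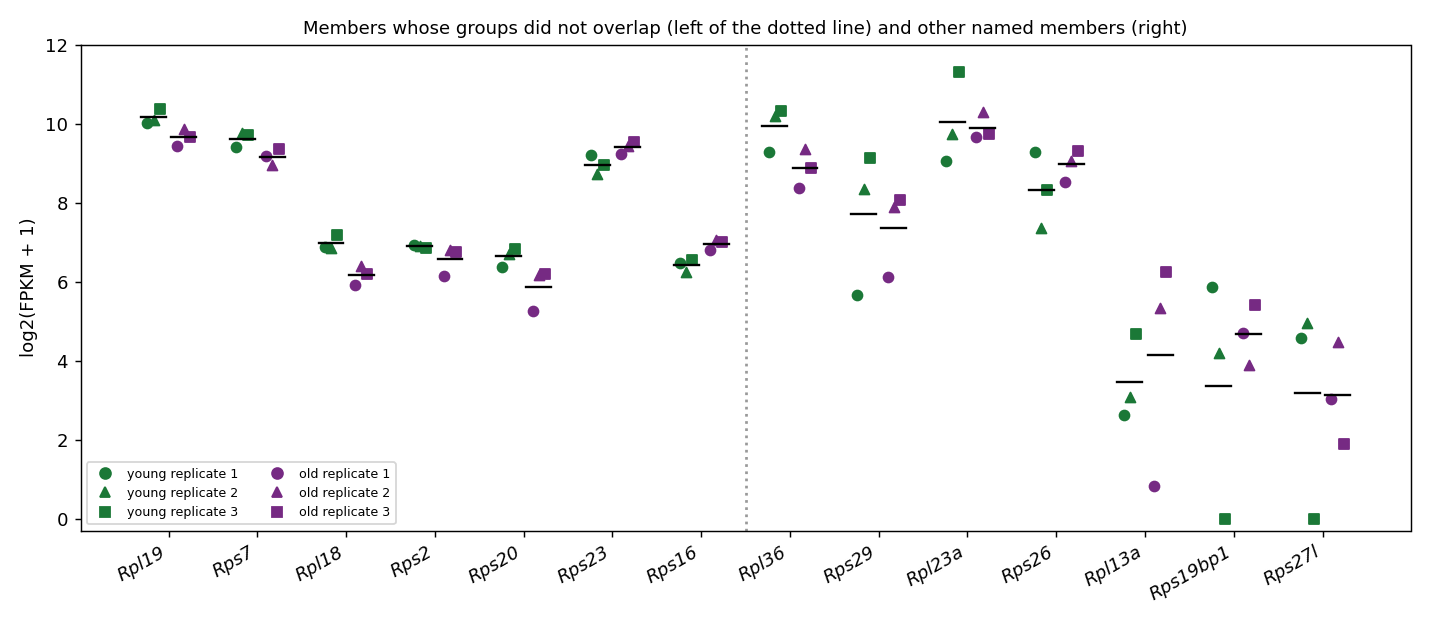
Log2(FPKM + 1) of 14 members in each library, young in green and old in purple, with symbols for the replicates and a bar at each group mean. Left of the dotted line are the 7 members whose groups do not overlap, and right of it are members with a large change or a wide spread; Rps19bp1 and Rps27l are at 0 in young replicate 3, and Rpl13a is lowest in old replicate 1.

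Other members of the large subunit had sizeable changes with overlapping groups. Rpl36, a small large-subunit protein (chr17:56613416-56614243), had the lowest unadjusted p of all members. Its levels were 624, 1173 and 1268 FPKM in young and 329, 659 and 471 in old libraries. The means were 1022 ± 348 and 486 ± 166 FPKM (SD, n = 3 each), and the log2 change was -1.06 ± 0.36 (SE), with an unadjusted p of 0.0146 and an adjusted p of 0.736 in limma. Young replicate 1 lay just below old replicate 2, which is the single overlap.

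Rpl38, which is known in mouse embryos for the translation of Hox mRNAs, was at 229, 579 and 179 FPKM in young and 117, 285 and 164 in old libraries, a log2 change of -0.70 ± 0.47 (SE; limma adjusted p = 0.851). Rpl35, which sits at the mouth of the exit tunnel, was at 544, 579 and 834 FPKM in young and 278, 668 and 432 in old, a log2 change of -0.57 ± 0.35 (SE; limma adjusted p = 0.845). Both had their lowest value in old replicate 1. Without young replicate 2 the change of Rpl38 shrank to -0.20, and without old replicate 1 that of Rpl35 shrank to -0.25.

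In the other direction, Rps26 of the small subunit, which touches the mRNA just ahead of the start codon, was at 627, 164 and 319 FPKM in young and 367, 533 and 636 in old libraries. Its log2 change was 0.64 ± 0.45 (SE; limma adjusted p = 0.854) and fell to 0.16 without young replicate 2, its lowest library. Rpl36a, on chromosome X (134585654 to 134588062), was at 92.3, 99.5 and 59.4 FPKM in young and 74.9, 122 and 190.3 in old, a log2 change of 0.55 ± 0.40 (SE; limma adjusted p = 0.854). Since the groups also differ in sex, the X-linked members are given together: Rpl10, Rps4x, Rpl36a and Rpl39 had a median log2 change of 0.0092, with 2 of 4 lower.

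For the stalk and its base, the SD between libraries of a group was 0.14 (Rplp0), 0.21 (Rplp1) and 0.26 (Rplp2) on the log2 scale. The median for core members of at least 300 FPKM was 0.27. Rplp0, which anchors the stalk to the large subunit, was at 777, 637 and 817 FPKM in young and 626, 666 and 663 in old libraries, with a log2 change of -0.18 ± 0.24 (SE). Rplp1 was at 1725, 1449 and 1899 FPKM in young and 1233, 1617 and 1243 in old, with a log2 change of -0.31 ± 0.26 (SE). Rplp2, its partner in the stalk, was at 379, 392 and 451 FPKM in young and 318, 514 and 417 in old, with a log2 change of 0.0084 ± 0.28 (SE). The groups overlapped in each of these genes. Rpsa, a small-subunit protein also known as the laminin receptor, was at 588, 704 and 767 FPKM in young and 605, 771 and 772 in old libraries, with a log2 change of 0.06 ± 0.25 (SE). The limma adjusted p of these 4 ranged from 0.854 (Rplp1) to 0.998 (Rplp2).

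Single libraries set several members apart. Rps29, a zinc-binding protein of the small subunit, was at 49.3, 322 and 564 FPKM in young and 68.8, 238 and 269 in old libraries, so replicate 1 was low in both groups. Rpl23a, which forms the docking site for the signal recognition particle at the tunnel exit, was at 533, 852 and 2554 FPKM in young and 802, 1257 and 854 in old, with young replicate 3 far above the rest. Rpl13a, a large-subunit protein that can leave the ribosome and silence inflammatory mRNAs, was at 5.22, 7.44 and 24.4 FPKM in young and 0.773, 39.5 and 75.4 in old. Old replicate 1 was its lowest library. The lowest value of Rpl13a rested on about 44.5 reads, whereas 74 of the 76 core members had at least 500 in every library.

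**Figure D4:**
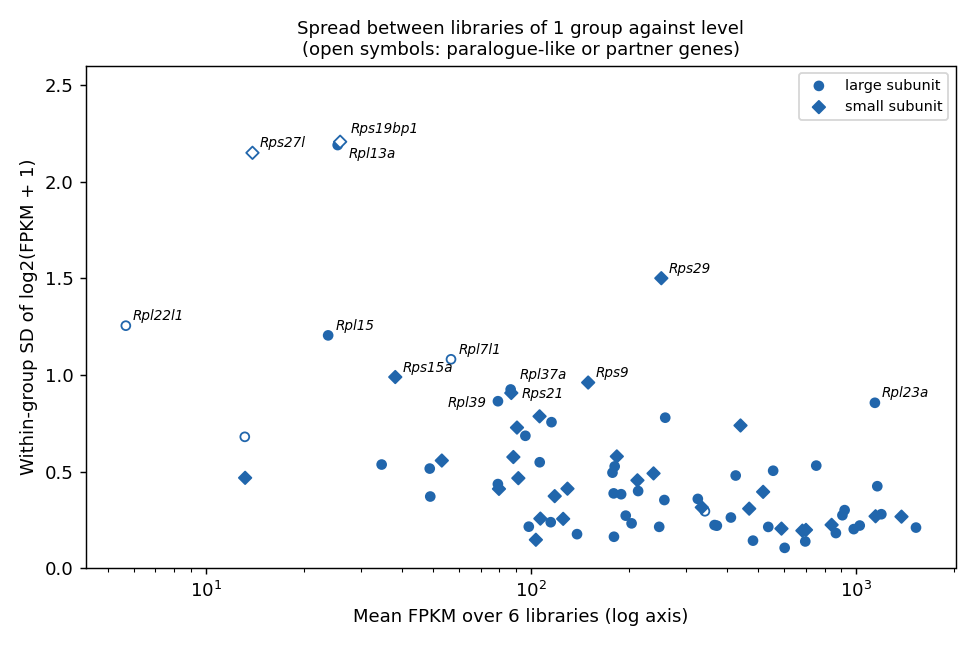
Standard deviation of log2(FPKM + 1) between libraries of 1 group (square root of the mean of the young and old variances) against the mean FPKM over 6 libraries on a log axis, for 80 members; circles are large-subunit and diamonds small-subunit symbols, open where the gene is a relative or partner. Rps29, at 1.5, stands above other members of similar level, and Rpl23a, at 0.86, above those near 1000 FPKM.

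Spread between libraries of a group was smaller at higher levels. Over the 76 core members the median within-group SD was 0.39 on the log2 scale. For core members of at least 300 FPKM the median within-group SD was 0.27 on the log2 scale, against 0.41 for other genes at that level. For those of 100 to 300 FPKM it was 0.40 against 0.48, and from 20 to 100 FPKM 0.58 against 0.58. Shorter members varied more: coding length and within-group SD had a Spearman correlation of -0.43 over 76 core genes, and mean level and SD one of -0.49, as descriptions. Members with a snoRNA gene inside them, 30 of the 76, had a median SD of 0.31 against 0.42 for the other 46, and median log2 changes of -0.14 and -0.18. Those 30 were also longer, with a median coding length of 511.5 against 432 bases, and length was not separated from the snoRNA genes.

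The relatives and partners differed widely in level and spread, from Rpl36al at 343 FPKM with a within-group SD of 0.29 to genes near 0 in some libraries. Rps19bp1, which encodes a partner of Rps19 and is not itself a subunit protein, was at 57.5, 17.4 and 0 FPKM in young and 25.1, 13.8 and 41.6 in old libraries. Rps27l, a p53-responsive relative of Rps27, was at 22.9, 29.8 and 0 FPKM in young and 7.11, 21 and 2.73 in old. Both were listed at 0 in young replicate 3, the library with the fewest genes above 0. The log2 change of Rps19bp1 was 1.31 ± 1.23 (SE; limma adjusted p = 0.854), and it turned to -0.37 without that library.

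Rpl22l1, a relative of Rpl22 that can stand in for it, was at 1.07, 2.58 and 5.52 FPKM in young and 9.89, 14 and 0.985 in old libraries (log2 change 0.92 ± 0.99, SE; limma adjusted p = 0.872). The change was 0.35 with old replicate 2 left out and 1.81 with old replicate 3 left out. Rpl22 itself was at 116 to 155 FPKM in every library, so the ratio of Rpl22l1 to Rpl22 ran from 0.00634 to 0.102. Rpl36al exceeded its X-linked relative Rpl36a in all 6 libraries, by 1.40 to 8.31 times. Rpl7l1, a nucleolar relative of Rpl7, was at 12.8 to 104 FPKM, or 0.0315 to 0.281 of Rpl7. Rpl6l, which GENCODE M21 annotates as a processed pseudogene (chr10:111125851-111126721), was at 13, 12.7 and 4.26 FPKM in young and 10.04, 20.8 and 18.3 in old libraries. How reads were divided between it and Rpl6 in counting was not tested.

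Among genes that work with these proteins, limma called 0 of the 78 tested in 4 lists at an adjusted p under 0.05, with 3 at an unadjusted p under 0.05 (Eif3h, Gar1 and Hbs1l). These 3 are 3.85% of the 78, against 5.91% of all tested genes, and are given as values only. Of 3 ribosome parts outside the symbol rule, Rack1, a scaffold on the small subunit, was at 159.7, 123 and 158 FPKM in young and 89.3, 106 and 136 in old libraries, with overlapping groups. Fau, which yields a small-subunit protein fused to a ubiquitin-like leader, was at 378, 389 and 525 against 379, 499.9 and 496 FPKM. Among 18 other TOP mRNAs 9 were higher and 9 lower, with a median log2 change of -0.03. In this list Eif3h, an initiation factor subunit, had the smallest p, at 334, 188 and 209 FPKM in young and 112, 149.9 and 151 in old (log2 change -0.79 ± 0.32, SE; limma adjusted p = 0.839).

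Ribosome biogenesis genes split 19 higher and 20 lower, with a median log2 change of -0.01. The smallest p in that list belonged to Gar1, a protein of the RNA-modifying H/ACA particles, at 0.226, 0.0218 and 0 FPKM in young and 1.93, 2.71 and 13.9 in old libraries (limma unadjusted p = 0.0262, adjusted p = 0.827). Fbl, the methylase of the other class of such particles, was at 11.6, 1.11 and 0.0101 FPKM in young and 10.7, 9.64 and 13 in old, low in 2 young libraries. Regulators of ribosomal protein synthesis split 9 and 9. Of these Hbs1l, a ribosome rescue factor, was at 60.9, 63.2 and 92.4 FPKM in young and 39.5, 46.3 and 22.2 in old (log2 change -1.02 ± 0.40, SE; limma adjusted p = 0.829), with no overlap.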

How the data were processed

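The 6 libraries, 3 young and 3 old, were analysed from the authors' deposited FPKM table. Per the submitters' processing notes, bcl2fastq 2.17, STAR and DESeq2 and the builds GRCm38 and mm10 were used, with no roles stated. The counter, annotation release and strand setting are not given in the sources used here, so antisense genes and near-identical copies are uncertain. Per the labels' protocols, a stranded kit for total RNA, with cleavage of ribosomal cDNA, turned 5 ng into each library. FPKM sums are not depths. Depth was estimated from the steps between low values, as roughly the FPKM of 1 read in 1 kb, 0.0353 to 0.0449.

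The members and gene lists were chosen with earlier results of these data known. Old and young libraries were compared with limma 3.58.1 (R 4.3.3; mean-variance trend, two-sided, Benjamini-Hochberg over all genes) on log2(FPKM + 1), which understates the change of low genes, for the 10687 genes with a mean of at least 1 FPKM. Changes are old minus young. Groups do not overlap where every library of one lies above every library of the other. The limma script was tested on simulated data. Members named were those with the 5 largest and 5 smallest changes, the 10 smallest p, the 5 highest and 5 lowest levels, a range over 2 (log2) within a group (the widest 12), the stalk proteins, Rpsa and paralogue pairs, and from each list the 2 of smallest p. Not every named member is described, and some are not reported here. Coordinates, lengths and snoRNA genes came from GENCODE M21 on GRCm38, which matched 84 of 84 members by identifier (63 with version), and promoters from RefSeq. Python 3.11.15, numpy 2.4.6, pandas 2.3.3, scipy 1.17.1 and matplotlib 3.10.9 were used. Alternatives were pseudocount, filter, scaling, model settings, replicate block and leaving out each library.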

Additional observations from a re-analysis of the deposited data

How the results depend on the processing

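Depth limits members of a few reads only, while the 3 libraries a group limit the precision of all; age, sex and supplier cannot be told apart. With limma, 0 ribosomal protein genes were called under every setting, with 0 to 5 of them at an unadjusted p under 0.05. Over all genes, 0 were called, with 632 at an unadjusted p under 0.05; 1 was called after quantile normalization, 1 with array weights, and 0 to 7 with 1 library left out (7 without young replicate 3, 1 without young replicate 1). Replicate numbers were not stated to pair libraries. Over all tested genes, same-numbered libraries did not deviate together (correlations -0.0344, 0.0203 and -0.00412). For the members alone these correlations were not computed. Replicate 1 had the lowest member share of summed FPKM in both groups, 9.47% in young and 7.48% in old. With the replicate block 0 genes were called and 4 members had an unadjusted p under 0.05 in limma. The block lowered the SE of Rpl36 from 0.36 to 0.25 and raised that of Rps16 from 0.29 to 0.33. The member median stayed negative with a pseudocount of 0.1 (-0.15), without the filter (-0.14), above 20 FPKM (-0.15), with the block (-0.15), with median-ratio scaling (-0.25, all genes 0.13) and with quantile normalization (-0.08, all genes -0.01). With 1 library left out it ran from -0.28 to 0.0039, and 40 to 64 members were lower. The large minus small median ran from -0.10 to 0.14. The share of summed FPKM fell by 1.70 points, by 1.60 without mitochondrial genes and by 1.93 without Jchain. Members wholly below young numbered 5, and 10 with median-ratio scaling (12.2%, against 7.27% of genes of at least 20 FPKM). With 1 library left out, where such separation is more frequent by construction, they were 5 to 16: 6.10% to 19.5% of members, against 8.08% to 12.6% of those genes. Their share was under that of those genes without young replicate 2 (8.54% against 11.9%) and without old replicate 1 (6.10% against 8.08%). Members wholly above numbered 2, then 2 to 8 (8 without old replicate 1, 9.76% against 7.83%). Of 190 alternative values for 16 members, 2 reversed: Rps19bp1, to -0.37 without young replicate 3, and Rpl13a, to -0.38 without old replicate 3. With 1 library left out the first ran up to 2.57 and the second up to 2.34.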

Other observations

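Rows that the symbol rule left out bear on reads of the family. Of 8 symbols that contain -ps, 3 reached a mean of 1 FPKM. The rows described here were chosen after their values were seen. Rpl13-ps3, a processed copy of Rpl13, was at 0, 0 and 137 FPKM in young and 0, 0.10 and 2.88 in old libraries. Rpl13 itself, a large-subunit protein, was at 237, 255 and 101 FPKM in young and 156, 161 and 175 in old. Only in young replicate 3 was the copy high and the parent low, and the parent overlapped between the groups. Each FPKM is divided by its own gene's length, so adding copy to parent would not restore the parent's reads. No sum is given for that reason. How reads were divided between such copies in counting was not tested.

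The 9 Rps6k kinases, which the rule left out by name, hold the kinases that phosphorylate Rps6 and their relatives. Rps6kb1, the main ribosomal S6 kinase, was at 19.8 ± 5.25 FPKM in young and 14.5 ± 3.08 FPKM in the old group (SD, n = 3 each), with overlapping groups. Rps6ka5, a nuclear kinase of histone and CREB targets, was at 0.730, 0 and 0 FPKM in young and 9.85, 3.32 and 9.62 in old (limma unadjusted p = 0.00903, adjusted p = 0.736), with no overlap.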
